A study of Mus musculus with 15 samples.

Results

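The 34 genes described here encode the enzymes, regulators and 1 carrier protein of cholesterol and fatty acid synthesis. They were chosen by name, as members of these pathways, from the 26145 genes listed for single cells of mouse prefrontal cortex (PFC), and 33 of the 34 had at least 1 unique molecular identifier (UMI, a tag that counts each captured RNA molecule once). All mice were male C57BL/6N. The P21 mice were 3 weeks old and carried no treatment, and 3 libraries were made from them. The P60 mice were 8 to 10 weeks old by their labels and had self-administered saline or cocaine, with 2 libraries per treatment at the end of maintenance, 2 at 48 h of withdrawal and 2 at 15 days of withdrawal. The paper implanted the catheters at P60 and took tissue after 15 days of maintenance, or 48 h or 15 days after that. Before catheterization these mice were food restricted, trained with food pellets and returned to normal chow, which is not described for the P21 mice. The P60 saline libraries thus differ in age at harvest and were taken later than P60. Each of the 12 P60 libraries pooled mice, so a library and not a mouse or a cell was the replicate. The methods give 4 mice for the 3 P21 libraries and 2 mice pooled per replicate. Which mice went into which library is not stated, so P21 libraries may share mice. The errors and p-values of the age tests count 3 P21 libraries, which may be more than the independent replicates. As an alternative, P21 libraries 2 and 3 were summed into 1. A label field names another brain region than the PFC given by the titles.

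Cholesterol is built in the brain itself, since the blood-brain barrier keeps out cholesterol carried in plasma. The mevalonate pathway makes isoprenoid units from acetyl-CoA, these are joined to squalene, and squalene is closed to a ring and trimmed to cholesterol. The transcription factors SREBP-1 (Srebf1) and SREBP-2 (Srebf2) switch on these genes when sterols are low: the escort protein Scap carries them to the Golgi, and Insig1 and Insig2 hold Scap back when sterols are plentiful. Oligodendrocytes need large amounts of cholesterol and fatty acids while they lay down myelin, and astrocytes are regarded as the main suppliers of cholesterol to neurons.

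Hmgcs1, which makes HMG-CoA early in the mevalonate pathway, is listed at 0 in all 15 libraries under both of its identifiers, so no level or change is given for it, and the reason was not tested. The positions of the members are those of the mouse build NCBIM37. The gene of squalene epoxidase, Sqle (ENSMUSG00000022351), lies on chromosome 15 from 59146632 to 59162747, farnesyl diphosphate synthase, Fdps (ENSMUSG00000059743), on chromosome 3 from 88897514 to 88905881, and lanosterol demethylase, Cyp51 (ENSMUSG00000001467), on chromosome 5 from 4081145 to 4104746. The libraries count the 3′ ends of transcripts, and no member with a position in the annotation used had an end nearly identical to that of another gene. Hmgcs1 had no position there under either identifier, so its end could not be checked. Exons of a neighbour lie within 300 bases of the 3′ end of Srebf1 (Rai1), Scap (Ptpn23), Fdft1 (Ctsb) and Fdps (Rusc1, on the same strand), and whether the counting used strand is not given in the sources used here.

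Promoter sequences, from 250 bases before to 50 bases after the start of transcription, were at hand for 27 members (35 promoters, RefSeq, GRCm38.p6). The letters CCAAT, the box bound by NF-Y, were found on either strand in 22 of the 35 promoters (62.86%), against 12289 of all 32851 promoters (37.41%). The sterol response element, searched as TCACNCCAC on both strands, was found in 1 of the 35 (2.86%, in Hmgcs1), against 408 of 32851 (1.24%). The promoters of 4 members that changed strongly with age are given below 5′ to 3′, chosen after their values were seen, with CCAAT or its reverse complement ATTGG in capitals. Isopentenyl-diphosphate isomerase (Idi1) and Cyp51 fell in mature oligodendrocytes, sterol methyl oxidase (Sc4mol, listed as Msmo1 by RefSeq) fell there and rose in neurons, and Insig1 fell in mature oligodendrocytes and in neurons. They lie at chr13:8885356-8885655 (Idi1, plus strand), chr5:4104648-4104947 (Cyp51, minus strand), chr8:64733529-64733828 (Sc4mol, minus strand) and chr5:28071162-28071461 (Insig1, plus strand).
Idi1: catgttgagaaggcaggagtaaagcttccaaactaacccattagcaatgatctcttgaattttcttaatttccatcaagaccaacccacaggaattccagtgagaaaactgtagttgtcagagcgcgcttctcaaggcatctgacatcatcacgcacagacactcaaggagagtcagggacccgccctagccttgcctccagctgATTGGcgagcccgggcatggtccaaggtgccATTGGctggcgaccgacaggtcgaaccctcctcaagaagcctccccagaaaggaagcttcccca
Cyp51: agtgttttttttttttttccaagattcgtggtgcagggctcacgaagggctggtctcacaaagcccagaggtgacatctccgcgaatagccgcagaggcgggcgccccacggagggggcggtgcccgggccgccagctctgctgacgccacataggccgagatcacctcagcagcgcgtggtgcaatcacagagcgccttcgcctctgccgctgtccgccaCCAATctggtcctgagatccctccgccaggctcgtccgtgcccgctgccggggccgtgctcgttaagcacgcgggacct
Sc4mol: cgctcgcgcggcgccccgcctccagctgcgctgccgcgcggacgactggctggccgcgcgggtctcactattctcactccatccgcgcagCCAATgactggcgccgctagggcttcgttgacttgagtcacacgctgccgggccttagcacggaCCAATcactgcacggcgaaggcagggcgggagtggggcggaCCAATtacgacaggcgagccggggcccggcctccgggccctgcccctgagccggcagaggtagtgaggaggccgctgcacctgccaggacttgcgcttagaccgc
Insig1: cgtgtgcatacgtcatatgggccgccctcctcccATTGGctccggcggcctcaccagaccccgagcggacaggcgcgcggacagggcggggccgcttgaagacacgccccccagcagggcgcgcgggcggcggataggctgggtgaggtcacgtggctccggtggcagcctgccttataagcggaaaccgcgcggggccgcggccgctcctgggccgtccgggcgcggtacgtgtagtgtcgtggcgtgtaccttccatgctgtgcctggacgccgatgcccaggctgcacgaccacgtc
Idi1 held 2 boxes, Cyp51 1, Sc4mol 3 and Insig1 1. A match of letters is a description of these windows and not evidence of binding.

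The libraries held 8375172 to 42892922 UMIs in 1055 to 4439 cells. The cells fell into the 8 types of the authors' annotation, and the 5 markers fixed for each type were, in sum, highest in that type for all 8 types. Levels are given as CPM, the UMIs of a gene per 1000000 UMIs of that cell type in that library, after mitochondrial and ribosomal protein genes were taken out. One P60 saline library of the maintenance period stood apart, with 8 astrocytes, 3 oligodendrocyte precursors (OPC), 0 newly formed (NF) oligodendrocytes and 41 mature oligodendrocytes, and it enters no value of the first 3 types, which needed at least 10 cells in a library. No library held both ages, so age cannot be told apart from batch, dissociation, or treatment and feeding history.

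The first question was which cells of the adult PFC carried these transcripts. Across the 6 P60 saline libraries, astrocytes held the highest mean level of 19 of the 33 detected members, NF oligodendrocytes and mature oligodendrocytes of 6 each, excitatory neurons of 1 (Insig2) and endothelial cells of 1 (the sterol carrier Stard4). The 17 detected enzymes from acetyl-CoA to cholesterol (18 listed, with Hmgcs1) summed to 3540 ± 718 CPM in astrocytes (SD, n = 5), 2010.1 ± 620 in NF oligodendrocytes (n = 5), 1555 ± 145 in mature oligodendrocytes (n = 6), 1191 ± 76.9 in excitatory neurons (n = 6) and 1162 ± 146 in OPC (n = 5). The sums were lower in inhibitory neurons, 1042 ± 109 CPM, in endothelial cells, 552 ± 57.7, and in microglia, 378 ± 93.5 (n = 6 each). By the larger SD of each pair, the sum of NF oligodendrocytes lay within 2 SD of those of mature oligodendrocytes, excitatory neurons, OPC and inhibitory neurons. The sums of excitatory neurons, OPC and inhibitory neurons also lay within 2 SD of each other. The 10 enzymes that make, desaturate and elongate fatty acids had another order, with 1901 ± 124 CPM in mature oligodendrocytes, 1145 ± 88.6 in astrocytes and 1041 ± 218 in NF oligodendrocytes, against 275 ± 30.5 in excitatory neurons and 137 ± 41.9 in microglia. The desaturase Scd2 alone made up 1415 ± 86.0 CPM of the sum in mature oligodendrocytes. This order therefore rests largely on 1 gene, and the order without Scd2 is not given.

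**Figure D1:**
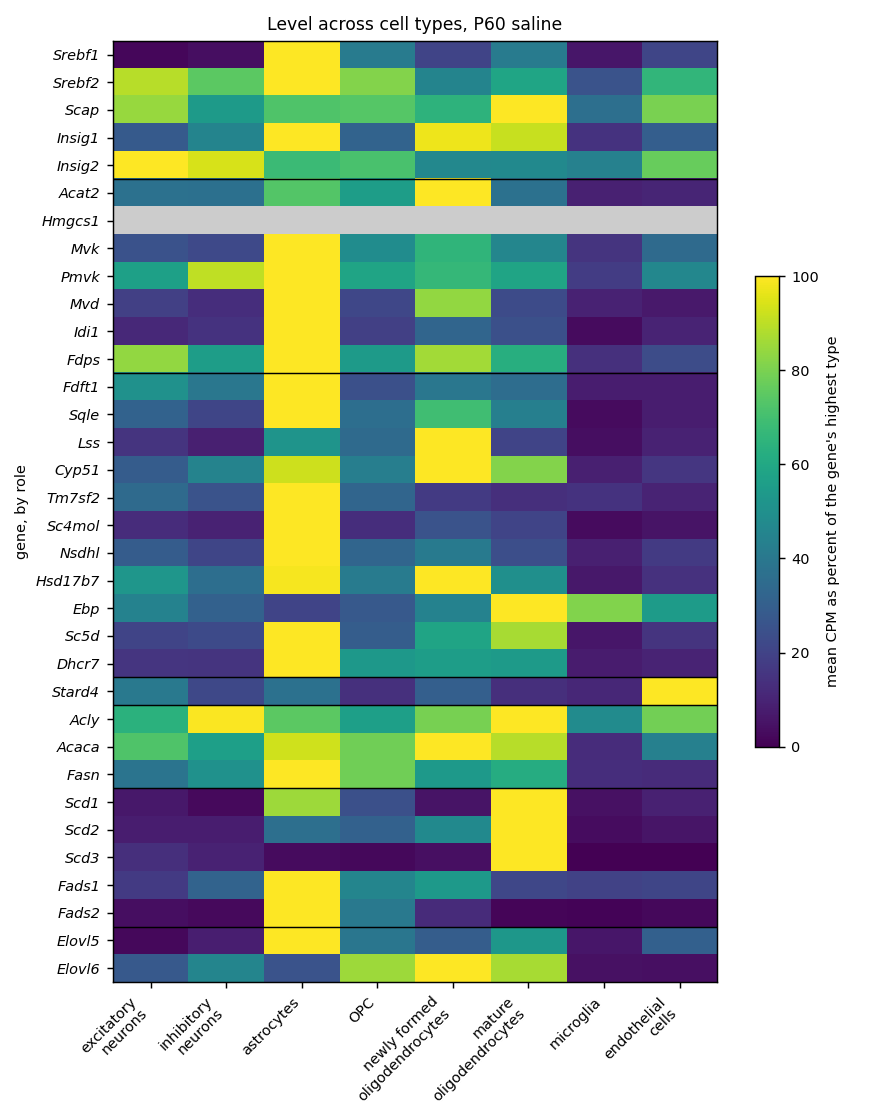
Heat map of the mean level of each member (a line each, ordered by role) in the 8 cell types (columns) of the P60 saline libraries, in color as a percent of the member's highest type, with Hmgcs1 in grey. The astrocyte column is highest for 19 members, and the desaturases Scd1, Scd2 and Scd3 are highest in mature oligodendrocytes.

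For 11 of the 19 members led by astrocytes the astrocyte level was above that of the next type in every library that held both. Over all 11199 genes with at least the mean level of the lowest detected member (5.23 CPM over the 8 types), astrocytes were the highest type for 8.39%, and in 48.6% of those they were above the next type in every such library. The same held for 0 of the 6 members led by NF oligodendrocytes (22.3% of all genes led by that type), 2 of the 6 led by mature oligodendrocytes (48.5%), 0 of 1 for excitatory neurons (43.1%) and 1 of 1 for endothelial cells (53.8%). These types were the highest for 12.9%, 6.61%, 15.2% and 18.4% of all genes. Sc4mol, which removes methyl groups from sterol intermediates, stood at 1122 ± 358 CPM in astrocytes and 288 ± 167 in NF oligodendrocytes, the next type (higher in 5 of 5 libraries). Idi1 stood at 243 ± 90.0 CPM in astrocytes and 79.2 ± 25.99 in NF oligodendrocytes (5 of 5). Srebf1 stood at 108 ± 18.4 CPM in astrocytes, 45.05 ± 14.9 in mature oligodendrocytes (5 of 5) and 1.77 in excitatory neurons. Srebf2, by contrast, differed little between astrocytes, 60.5 ± 14.1 CPM, and excitatory neurons, 54.1 ± 7.47, with astrocytes higher in 3 of 5 libraries. Insig1 at 67.9 ± 29.7 CPM in astrocytes and 66.2 ± 58.6 in NF oligodendrocytes, Cyp51 at 133 ± 71.5 in NF oligodendrocytes and 123 ± 22.9 in astrocytes, and the citrate-cleaving enzyme Acly at 79.4 ± 9.26 in mature oligodendrocytes and 79.0 ± 15.1 in inhibitory neurons did not differ beyond their spread. Scd2, a desaturase that makes monounsaturated fatty acids, stood at 1415 ± 86.0 CPM in mature oligodendrocytes and 672 ± 141 in NF oligodendrocytes (5 of 5). Its neighbour Scd3 stood at 31.5 ± 11.9 CPM in mature oligodendrocytes and 4.28 ± 0.83 in excitatory neurons (6 of 6). Stard4 stood at 54.4 ± 8.65 CPM in endothelial cells and 22.0 ± 3.69 in excitatory neurons (6 of 6).

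The difference between types was tested with edgeR, with the library as a block, on 10410 genes, and genes were called at an adjusted p below 0.05 and a change of more than 1.5-fold. The types were clustered by the authors on these same counts, so the types are not independent of them, and most genes differed. In astrocytes against excitatory neurons 58.4% of genes were called and 27.1% were higher in astrocytes, and of the 33 members 23 were higher and 2, Ebp and Scd3, lower. The member median was 1.74 on the log2 scale, against -0.13 over all genes. The largest differences were those of Srebf1, 5.84 ± 0.22 (log2, SE), the elongase Elovl5, 5.43 ± 0.18, and the desaturase Fads2, 4.77 ± 0.22, which makes polyunsaturated fatty acids. In mature oligodendrocytes against excitatory neurons 60.6% of genes were called and 24.0% were higher, and 19 members were higher and 3 (Insig2, Stard4, Tm7sf2) lower, with a member median of 0.78 against -0.28.

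The oligodendrocyte lineage was compared next. In NF oligodendrocytes against OPC, 24.0% of genes were called, and 11 members were higher in the newly formed cells. All but 1 of these were cholesterol enzymes, among them Mvd (2.01 ± 0.31, which makes isopentenyl diphosphate), Lss (1.42 ± 0.47, which closes the sterol ring), Hsd17b7 (1.37 ± 0.41) and Cyp51 (1.06 ± 0.27), and the other was Scd2 (0.62 ± 0.13), while Fads2 was lower (-1.83 ± 0.53). In NF against mature oligodendrocytes 24.6% of genes were called. Here 4 members were higher in the newly formed cells, Fads2 (2.40 ± 0.89), Lss (1.23 ± 0.41), Mvd (1.16 ± 0.25) and Acat2 (0.72 ± 0.25), and 10 were lower, led by Scd3 (-4.19 ± 0.64), Scd1 (-3.84 ± 0.47), Scd2 (-1.59 ± 0.12), the sterol isomerase Ebp (-1.59 ± 0.20), Elovl5 (-1.56 ± 0.29), Scap (-1.29 ± 0.41) and the sterol desaturase Sc5d (-1.11 ± 0.19). Fads2 was low here, and it was left out of the age tests of both NF and mature oligodendrocytes, given below, for low counts. Without the second saline library of 15 days the count against mature oligodendrocytes was 9 in place of 14, and without the first it was 7 in place of 12 against OPC.

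Within a type the clusters of the authors' finer annotation differed as well, described here over all 12 P60 libraries for the 80 clusters with at least 10 cells in at least 2 of them. All 8 astrocyte clusters stood at the top for the sum of the cholesterol enzymes, from 2930.4 to 3809 CPM, and the next was the mature oligodendrocyte cluster Oligo_1 at 1873 ± 353. Of the 9 NF clusters only 2 had enough cells, NF Oligo_8 at 1162 ± 128 CPM (n = 3) and NF Oligo_2 at 907 ± 187 (n = 2). Both lay well below the sum over all NF cells and near the 4 OPC clusters (955 to 1148). NF Oligo_8 lay just above the highest OPC mean and NF Oligo_2 below the lowest. These 2 clusters rest on 59 of the 336 NF cells of P60, so the place of NF oligodendrocytes above OPC is not settled at the level of clusters. Among the 26 excitatory clusters the sum ran from 642 ± 45.1 CPM in Exc_1 (n = 11) to 1652 ± 139 in Exc_7 (n = 9). Fdps followed the same ends, with 129.8 ± 30.3 CPM in Exc_1 and 525.6 ± 49.2 in Exc_7, as did Sc4mol, with 52.2 ± 12.2 and 229 ± 59.3. The ranges of the sum over libraries did not meet between these 2 clusters, but clusters were drawn on these counts and the difference was not tested. Insig1 had other ends, with 4.72 ± 2.80 CPM in Exc_4 and 59.0 ± 21.5 in Exc_6.

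The second question was how these genes differ between the P21 and the adult PFC. Libraries are said below to be apart where the values of the ages did not overlap. The share of all genes apart between the ages was not computed, so this describes the libraries and adds no evidence to a call. In mature oligodendrocytes most of the cholesterol enzymes tested were lower in the adult. Of 29 members tested, 17 were lower and 3 higher at P60 saline than at P21, where 17.8% of all 5101 genes were called, 10.3% lower and 7.55% higher. The member median was -0.90 on the log2 scale, against 0.02 over all genes. Of the called members 3 (Scd3, Srebf1, Lss) passed the filter on low counts only through the age at which they were high, and over the 24 members that passed it in the libraries of each age taken alone 16 were lower and 1 higher. Of these 24, all 6 mevalonate enzymes were lower, and 7 of the 9 later enzymes, leaving Dhcr7 (-0.49 ± 0.26) and Ebp (0.13 ± 0.18) not called. The 17 detected enzymes summed to 3413 ± 318 CPM at P21 (3205 to 3779, n = 3) and 1555 ± 145 at P60 (1357 to 1723, n = 6), with no overlap. The 10 fatty acid enzymes summed to 2042 ± 106 CPM and 1901 ± 124, within the spread between libraries. Scd2, which was not called, made up most of the P60 sum, so this says little about the other enzymes.

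**Figure D2:**
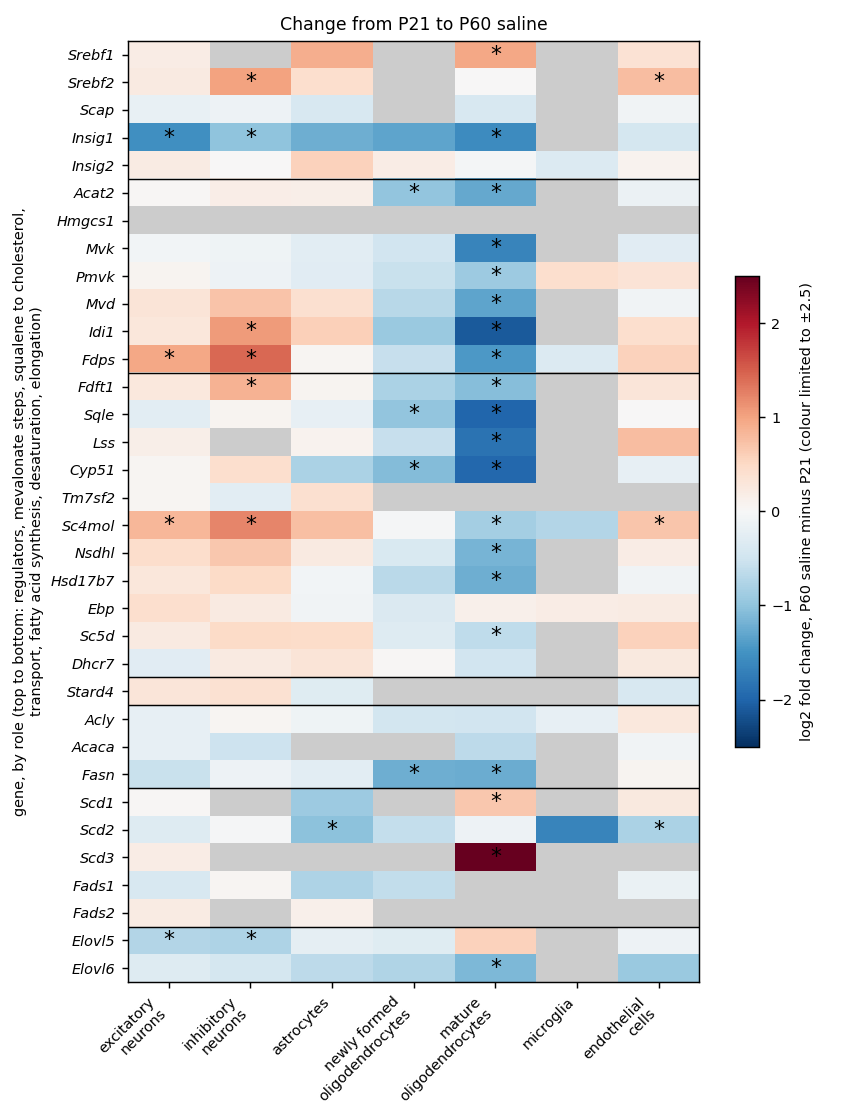
Heat map of the log2 fold change of each member (a line each, ordered by role), P60 saline minus P21, in the 7 cell types tested (columns), with color limited to ±2.5, stars on called changes (edgeR) and grey where a member was not tested. In the mature oligodendrocyte column 17 members are starred in blue, from -2.10 (Idi1) to -0.64 (Sc5d), and 3 in red.

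In the mevalonate branch, Idi1, which converts isopentenyl to dimethylallyl diphosphate, stood at 218, 286 and 207 CPM in the 3 P21 libraries and at 38.6 to 108 in the 6 P60 saline libraries (median 50.3). The groups did not overlap, and the change was -2.10 ± 0.24 (log2, SE, edgeR adjusted p = 2.63e-05). Fdps, which makes farnesyl diphosphate, stood at 609, 649.8 and 589.7 CPM at P21 and 218 to 268 at P60 (median 239.9). Again every P21 library was above every adult one (-1.44 ± 0.12, edgeR adjusted p = 5.42e-07). Mevalonate kinase, Mvk, stood at 96.5, 112 and 121 CPM against 22.5 to 55.2 (median 35.8), apart as well, at -1.65 ± 0.22 (edgeR adjusted p = 4.62e-05). Acat2, Pmvk and Mvd fell by 1.28, 0.90 and 1.32 on the log2 scale, and none of them overlapped between the ages.

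Among the sterol enzymes, Sqle, a rate-limiting step that oxidises squalene, stood at 328, 453 and 298 CPM at P21 and 72.2 to 131 at P60 (median 94.6). The lowest P21 library was above the highest adult library, and Sqle fell by 1.98 (SE 0.18, edgeR adjusted p = 1.61e-06). Cyp51, which removes a methyl group from lanosterol, stood at 364, 448 and 359 CPM against 87.9 to 158 (median 99.0). It too was apart (-1.97 ± 0.16, edgeR adjusted p = 3.97e-07, the lowest of any member). Lss had only 123 UMIs at P21 and 41 at P60 and was tested only because of its P21 level, so its call (-1.85 ± 0.36) adds nothing to these values. Fdft1, which makes squalene, fell by 1.06, Nsdhl by 1.17 and Sc4mol by 0.85, all apart, whereas Hsd17b7 (-1.22) and Sc5d (-0.64) were called with overlapping libraries. Sc5d lost its call without P21 library 2 (edgeR adjusted p = 0.148), and Hsd17b7 without P21 library 3 (0.0547). The call of Sc5d was also lost with P21 libraries 2 and 3 summed (edgeR adjusted p = 0.0542). Without the first saline library of 15 days its change (-0.58) was under the 1.5-fold cut. With the library number as a block, Nsdhl (edgeR adjusted p = 0.0898) and Sc5d (0.0681) lost their calls, as did Srebf1 (0.234).

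The fatty acid genes did not move together. Fatty acid synthase, Fasn, fell by 1.24 (SE 0.20) and the elongase Elovl6 by 1.13 (SE 0.16), both apart. Acly (-0.48 ± 0.18), acetyl-CoA carboxylase Acaca (-0.65 ± 0.34), Scd2 (-0.13 ± 0.12) and Elovl5 (0.58 ± 0.29) were not called. Scd3 went the other way, with 2 UMIs in P21 library 1 and 0 in the other two, 2 of 2830612, against 96 of 2883163 at P60, where every library had at least 2. The ratio of the shares was 47.1, with an exact 95% counting interval of 12.7 to 395, and since Scd3 was tested only because of its P60 level, its call adds nothing to these values. Scd1 was 0.68 ± 0.23 higher at P60, with libraries just apart (34.9 to 48.9 against 49.6 to 120.1 CPM), and its call was lost in 12 of the alternatives tried, DESeq2 included (adjusted p = 0.0876).

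Of the regulators in mature oligodendrocytes, Insig1, itself a target of SREBP, stood at 195, 167 and 165 CPM at P21 and 34.4 to 129.7 at P60 (median 52.3). The groups were apart, and the change was -1.57 ± 0.32 (edgeR adjusted p = 5.16e-03). Srebf1 stood at 24.0, 14.9 and 23.3 CPM at P21 and 22.5 to 66.2 at P60 (median 44.3), with overlapping libraries (0.96 ± 0.28). It was tested only because of its P60 level, so its call adds nothing to these values, and the call was lost without P21 library 2 (edgeR adjusted p = 0.0771) or P21 library 3 (0.0517). Srebf2 (0.02 ± 0.30), Insig2 (-0.04 ± 0.25) and Scap (-0.39 ± 0.25) were not called.

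**Figure D3:**
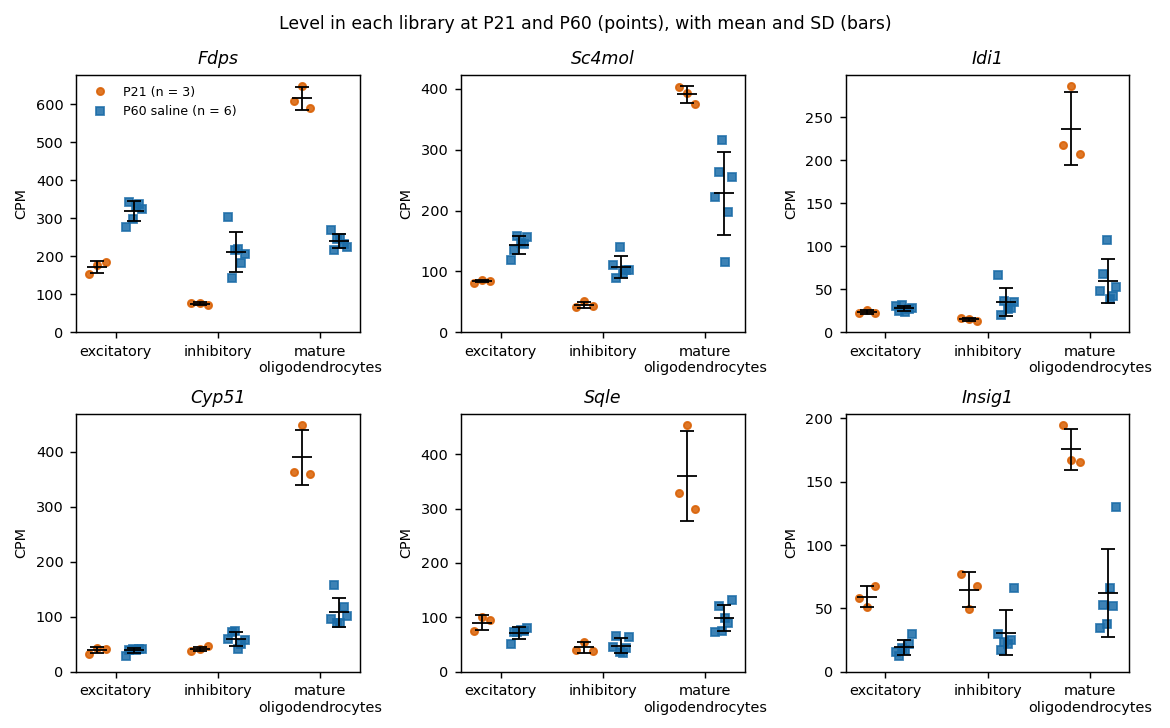
CPM of Fdps, Sc4mol, Idi1, Cyp51, Sqle and Insig1 in each library, 3 of P21 (circles) beside 6 of P60 saline (squares), in excitatory neurons, inhibitory neurons and mature oligodendrocytes, with bars for mean and SD. The P21 points of Sqle, Cyp51, Idi1 and Fdps lie above every adult point in mature oligodendrocytes, while Fdps and Sc4mol lie below every adult point in excitatory neurons.

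Other transcripts moved with age in the same cells. In mature oligodendrocytes the 5 mature markers summed to 83176 to 111669 CPM at P21 and 50649 to 65453 at P60, the 5 NF markers to 398 to 459 and 259 to 315, and the 5 OPC markers to 427 to 471 and 171 to 386, with Vcan at 0 at P60. The 5 microglia markers summed to 76.9 to 265 CPM at P21 and 7.51 to 40.8 at P60, without overlap, the endothelial markers to 74.0 to 268 and 0 to 78.8 (means 175 and 38.5), and the inhibitory markers to 41.5 to 69.7 and 22.1 to 44.3. UMIs per cell ran from 4437 to 6256 at P21 and 3089.6 to 5258 at P60. The astrocyte markers overlapped, 214 to 559 against 218 to 456 CPM, as did the excitatory markers, 22.4 to 93.0 against 45.04 to 208, and the 5 stress genes that rise during tissue dissociation, 2417 to 2738 against 1495 to 3911. The part of these differences in the result was not tested.

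In excitatory neurons 19.3% of 13245 genes were called, and 4 of 33 members, with a member median of 0.07. Fdps stood at 153, 176 and 184 CPM at P21 and 277 to 343 at P60 (median 329), opposite to mature oligodendrocytes and again apart. Its change was 0.97 ± 0.10 (edgeR adjusted p = 2.83e-05). Sc4mol stood at 81.7, 86.2 and 84.8 CPM against 119 to 159 (median 146), apart, at 0.84 ± 0.10 (edgeR adjusted p = 5.71e-05). Insig1 stood at 58.4, 51.4 and 67.7 CPM against 12.2 to 29.4 (median 17.8), and was thus lower in adult neurons as in adult oligodendrocytes (-1.54 ± 0.20, edgeR adjusted p = 2.03e-04). Elovl5 was low throughout, 6.95 to 8.70 against 2.78 to 5.66 CPM, and fell by 0.73. The 5 stress genes summed to 763 to 800.0 CPM at P21 and 319.7 to 505 at P60 in these neurons, and the mature oligodendrocyte markers to 265 to 546 and 46.5 to 130.5. The endothelial markers summed to 72.8 to 112 and 19.7 to 38.8, the NF markers to 12.0 to 20.95 and 0.24 to 2.80, the OPC markers to 7.76 to 14.2 and 1.72 to 4.75, and the inhibitory markers to 9.86 to 11.9 and 0.725 to 5.11, all without overlap, with 7929 to 11957 and 12857 to 15561.0 UMIs per cell, and their part in the result was not tested.

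Inhibitory neurons gave 5 members higher and 2 lower of 28, where 14.0% of genes were called. In these cells the microglia markers summed to 53.6 to 73.5 CPM at P21 and 0 to 39.0 at P60, and the inhibitory markers to 2593 to 2974 and 3205 to 4543, both without overlap, while the stress genes overlapped (670.2 to 773 against 156 to 804), and their part in the result was not tested. Fdps stood at 78.5, 77.1 and 72.0 CPM at P21 and 144 to 304 at P60 (median 211), a change of 1.43 ± 0.17 (edgeR adjusted p = 3.17e-05). Sc4mol stood at 42.3, 50.8 and 42.8 CPM against 89.3 to 141 (median 102), a change of 1.23 ± 0.16 (edgeR adjusted p = 1.04e-04). The other called members that were higher in the adult were Fdft1 (0.86 ± 0.17), Srebf2 (1.00 ± 0.21) and Idi1 (1.06 ± 0.24), and all 5 were apart. Insig1 was lower (-1.01 ± 0.31) with overlapping libraries, and Elovl5 lower (-0.77 ± 0.25) and apart. Both calls were easily lost, that of Insig1 in 10 of 18 alternatives, 7 of them the omission of 1 library (P21 library 1 or 3, or any 1 of 5 saline libraries, edgeR adjusted p up to 0.122), and that of Elovl5 in 11 of 18, 6 of them such omissions (P21 library 2 or 3, or any 1 of 4 saline libraries, up to 0.181), DESeq2 included (0.0950). Fdft1 (edgeR adjusted p = 0.0570) and Idi1 (0.120) lost theirs with the library number as a block. The cholesterol enzymes summed to 728 ± 62.9 CPM at P21 and 1042 ± 109 at P60 in these neurons, without overlap.

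The rise of Fdps and Sc4mol was spread over the excitatory clusters. In the 26 clusters tested one by one, 11.3% of cluster-by-gene tests were called, 4.54% higher and 6.73% lower. Fdps was called higher in 19 of 26 clusters (0.07 to 1.61, positive in all) and Sc4mol in 17 of 26 (0.25 to 1.45, positive in all). Insig1 was called lower in 16 of the 20 clusters where it could be tested (-2.55 to -0.61). Sqle was called lower in 5 of 26 clusters, Exc_1, Exc_2, Exc_4, Exc_5 and Exc_18, and in none higher. Clusters of 1 library share that library, so these counts are not separate evidence.

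**Figure D4:**
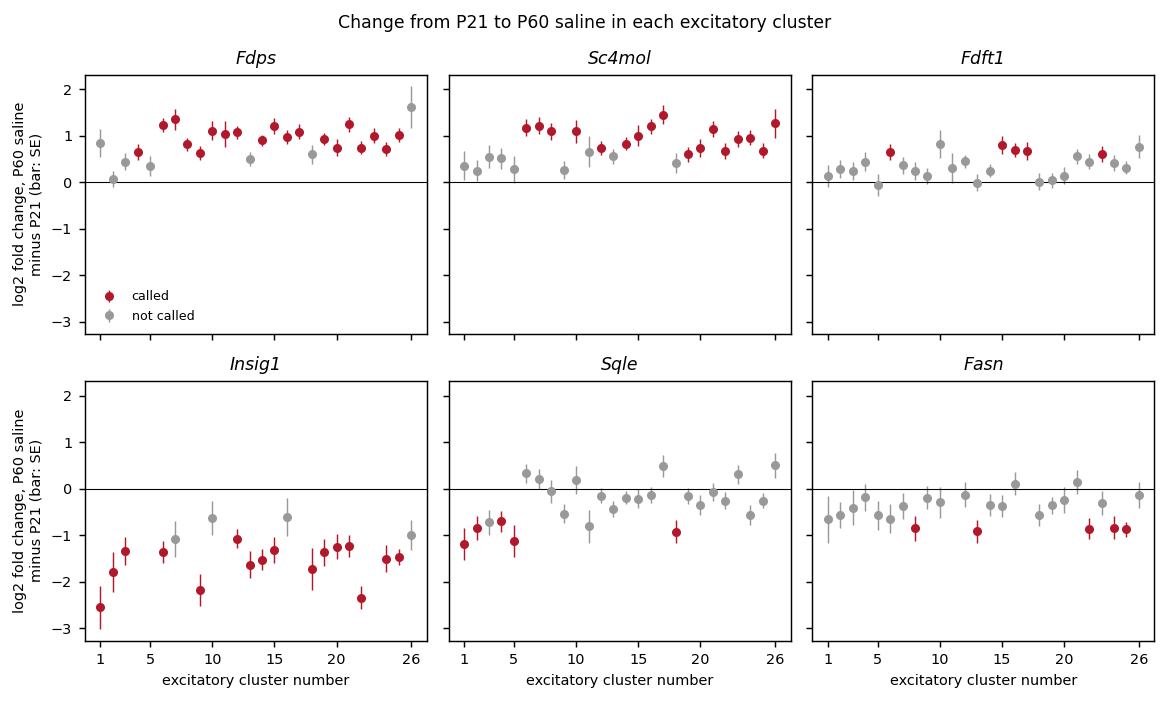
Log2 fold change with SE, P60 saline minus P21, of Fdps, Sc4mol, Fdft1, Insig1, Sqle and Fasn by number of the excitatory cluster (edgeR), with called clusters in red and the others in grey. Fdps and Sc4mol lie above 0 in all 26 clusters, and Insig1 lies below 0 in all 20.

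Few members were called in the other types. In NF oligodendrocytes, where 1.94% of genes were called, 4 of 24 members were lower in the adult: Fasn (-1.23 ± 0.27), Cyp51 (-1.08 ± 0.26), Acat2 (-0.99 ± 0.23) and Sqle (-0.98 ± 0.24). Only Fasn was apart, at 110.0, 103 and 103 CPM against 24.5 to 54.6. The saline libraries used held 11 to 60 NF oligodendrocytes each, against 144 to 224 in the P21 libraries. Of the 24 members, 22 had a negative change, against 50.2% of all 4693 genes tested, with a median of -0.59, against -0.0028 over all genes. Among the 22 was Fads1 (-0.61), which passed the filter on low counts only through its P21 level, so its sign adds nothing. Over the 23 members that passed the filter at each age alone the median was -0.59 as well. The 4 calls fell to 0 without either the second saline library of 48 h or the first of 15 days, and to 1 without P21 library 2. In the same cells the stress genes summed to 461 to 902 CPM at P21 and 1103 to 2975 at P60, the mature markers to 45717 to 49579 and 23952 to 38288, and UMIs per cell ran from 2669.5 to 4762 and from 5283 to 6478, all without overlap, and their part in the result was not tested. In endothelial cells, where 12.7% of genes were called, Sc4mol (0.70 ± 0.15) and Srebf2 (0.77 ± 0.18) were higher and Scd2 (-0.78 ± 0.15) lower of 30 tested, all apart. Srebf2 lost its call there without P21 library 2 (edgeR adjusted p = 0.0546) or P21 library 3 (0.0542). In astrocytes, where 1.11% of genes were called, Scd2 alone of 31 was lower, at 634, 1143 and 1449 CPM against 445 to 604 (-1.02 ± 0.22, edgeR adjusted p = 3.34e-02). That call was lost without any 1 of 5 libraries, P21 libraries 2 and 3, the first saline library of maintenance and both saline libraries of 48 h. The stress genes in astrocytes summed to 2049.8 to 6743 CPM at P21 and 490.1 to 1717 at P60, the OPC markers to 48.4 to 123 and 7.14 to 45.4, and the inhibitory markers to 14.0 to 29.1 and 0 to 13.3, all without overlap, and their part was not tested. In microglia, where 0.726% of genes were called, edgeR called 0 of the 7 members tested, with 1 at an unadjusted p below 0.05, and DESeq2 called 1. OPC were not tested, since only 1 P21 library held at least 10.

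Whether the change in mature oligodendrocytes differed from that in neurons and endothelial cells was tested in a fit with library as a block, chosen after these values were seen. The remaining types, NF oligodendrocytes and astrocytes among them, were not compared. The change is therefore not shown to be particular to mature oligodendrocytes. Against excitatory neurons, where 5.00% of genes were called, 17 of 33 members changed more negatively in mature oligodendrocytes and 2 (Scd3, Elovl5) more positively. Against inhibitory neurons (4.09% called) the counts were 16 and 2 of 31, and against endothelial cells (6.44% called) 16 and 0 of 32. Some of these members had been left out of the age test of 1 type for low counts (Stard4 in mature oligodendrocytes, Lss and Scd3 in inhibitory neurons). Others had been tested in mature oligodendrocytes only through the age at which they were high (Scd3, Lss and Srebf1). Over the members that passed the filter at each age alone in both types the counts were 15 and 1 (Elovl5) of 24 against excitatory neurons, 13 and 1 (Elovl5) of 22 against inhibitory neurons, and 14 and 0 of 20 against endothelial cells. Fdps, which was called in opposite directions in oligodendrocytes and neurons, differed by -2.37 ± 0.17 from excitatory neurons (edgeR adjusted p = 1.68e-16) and by -2.83 ± 0.17 from inhibitory neurons (edgeR adjusted p = 1.57e-13). For Insig1 the difference between mature oligodendrocytes and either class of neurons was not called.

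Genes that carry, store or break down sterols, and genes that handle fatty acids, were followed as further lists, set here beside the share of all genes called in the same type. Unlike the members, these genes were not checked for passing the filter on low counts only through the age at which they were high. The shares of the lists may therefore include such genes. In mature oligodendrocytes the sterol list had 1 of 9 tested genes higher, the exporter Abcg1 (1.02), and 2 lower, Npc2 (-0.86) and Vldlr (-0.63), a median of -0.05, so 33.3% were called against 17.8% of all genes. The fatty acid list had 6 of 13 lower, among them Acss2 (-1.73), which makes acetyl-CoA from acetate, Acsl3 (-1.24) and Elovl7 (-1.19), and Fads6 (1.70) higher, 53.8% in all. In excitatory neurons Abca1 (-1.39) and Mylip (-0.85) were lower and Cyp7b1 (0.63) and Stard3 (0.60) higher of 19 sterol genes, and 4 of 19 fatty acid genes were lower, for each list 21.1%, near the 19.3% of all genes. In endothelial cells the exporters Abca1 (-2.09) and Abcg1 (-1.74) and the receptor Lrp8 (-1.26) were lower and Ch25h (3.22), which makes 25-hydroxycholesterol, higher of 19, 21.1% against 12.7% of all genes. Of the 16 fatty acid genes there, Acacb (1.16) was higher and Fads3 (-0.93) and Fabp7 (-2.32) lower, 18.8%. In NF oligodendrocytes edgeR called 0 of the 11 sterol genes (3 at an unadjusted p below 0.05) and 0 of the 10 fatty acid genes (4 at an unadjusted p below 0.05), where 1.94% of all genes were called. Inhibitory neurons had 1 of 14 sterol genes (7.14%) and 3 of 16 fatty acid genes (18.8%) called, against 14.0% of all genes. The other 2 types had at most 1 gene called in a list, microglia 0 of 11 and 1 of 8 (0.726% of all genes) and astrocytes 0 of 13 and 1 of 12 (1.11%).

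The third question was whether cocaine changed these genes. No member was called in any cell type or period, at 2 libraries against 2. In edgeR 0 of 128 member tests were called at maintenance (7 at an unadjusted p below 0.05), 0 of 210 at 48 h (10), 0 of 210 at 15 days (10) and 0 of 128 over all periods (5). DESeq2 called 0 as well, with 3, 2, 1 and 0 at an unadjusted p below 0.05. Over all genes 0.0115%, 0.00827%, 0.339% and 0.00689% of tests were called. Treatment by period gave 0 of 128 for 48 h minus maintenance (5 at an unadjusted p below 0.05 in edgeR and 0 in DESeq2), 0 of 128 for 15 days minus maintenance (7 and 5) and 0 of 210 for 15 days minus 48 h (10 and 0), where 0%, 0.00459% and 0.00992% of all tests were called. Maintenance was not tested in astrocytes, OPC and NF oligodendrocytes, for lack of cells in 1 saline library.

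**Figure D5:**
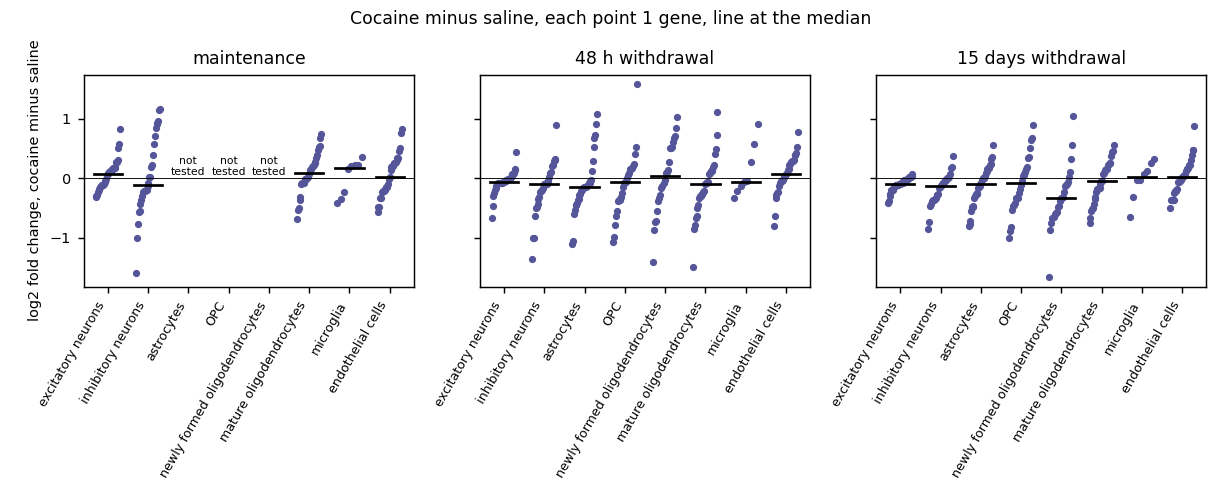
Log2 fold change of the members, cocaine minus saline, in each cell type and period (edgeR), each point 1 member and each line the median of a type. No member was called, and the lowest adjusted p was 0.43 (Sc4mol in excitatory neurons at 15 days).

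Over the pooled periods the levels of Fdps, Cyp51 and Sqle overlapped between the treatments. Fdps in excitatory neurons ran from 277 to 343 CPM in the 6 saline libraries (median 329) and from 278 to 348 in the 6 cocaine libraries (median 312). Cyp51 in mature oligodendrocytes ran from 87.9 to 158 (median 99.0) and from 77.8 to 169 (median 107), and Sqle there from 72.2 to 131 (median 94.6) and from 48.5 to 88.8 (median 79.4). Of the 39 changes called with age, 34 could be tested for cocaine over all periods, and their changes ran from -0.52 to 0.49 on the log2 scale, with SE of 0.08 to 0.46 at 6 libraries against 6. At 2 against 2 the errors were larger, with changes of -1.003 to 0.82 (SE 0.14 to 0.99, 34 tested) at maintenance, -0.85 to 1.03 (SE 0.14 to 0.91, 39 tested) at 48 h and -0.85 to 0.56 (SE 0.14 to 0.57, 39 tested) at 15 days. Within the 15 day period 15 of 33 members did not overlap between the treatments in excitatory neurons, all lower in cocaine, where 44.0% of all genes did not overlap, 31.5% lower and 12.5% higher, and none of the members was called. In mature oligodendrocytes it was 16 of 30, 6 higher and 10 lower in cocaine, against 35.6% of all genes (18.1% higher and 17.6% lower). Sc4mol stood at 145.8 and 155.9 CPM in saline and 92.6 and 127.5 in cocaine in the neurons, and in mature oligodendrocytes Sc4mol was lower (197 and 254 against 157 in both) and Fdps higher (234 and 225 against 278 and 274) in cocaine. The lowest unadjusted p of each period belonged to Insig2 in inhibitory neurons at maintenance (0.91 ± 0.30), Fdft1 in inhibitory neurons at 48 h (-0.63 ± 0.22) and Idi1 in NF oligodendrocytes at 15 days (-1.66 ± 0.56), and none of them was called.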

How the data were processed

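Single cells of mouse PFC were captured with 10x Genomics 3′ chemistry, and the authors deposited UMI counts per gene and cell, counted with Cell Ranger against the mm9 genome (NCBIM37), and a table of the cells they kept with their type and cluster. The submitters' processing notes name Seurat 2.1.0. From these counts, 35360 cells in 15 libraries were summed per library and type (the start of the finer cluster name) without 13 mitochondrial and 143 ribosomal protein genes, leaving 25989 genes. The authors removed doublets before deposit, by a cut on genes per cell and by inspection after clustering. Libraries shared at most 27 cell barcodes. The deposited table also holds the fraction of mitochondrial UMIs per cell, computed by the authors, with medians of 2.41 to 3.64% over libraries.

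The summed counts were tested with edgeR 4.0.16 (quasi-likelihood, TMM, filterByExpr, R 4.3.3), with Benjamini-Hochberg adjustment over all genes tested of a type. A gene counted as called when its adjusted p was under 0.05 and its change exceeded 1.5-fold. Age was tested in 3 P21 against 6 P60 saline libraries, cocaine in 6 groups of treatment by period. Alternatives were DESeq2 1.42.0, its size factors, no filter, no fold minimum, at least 30 cells, the authors' class column, all 12 P60 libraries, P21 libraries 2 and 3 summed, the library number as a block and leaving out each library. Members, the 2 further lists (20 sterol and 21 fatty acid handling genes) and tests were chosen with earlier results of these data known. The called members given by library are mainly those with the lowest adjusted p, at most 6 of a type. In mature oligodendrocytes the regulators Insig1 and Srebf1 are given by library as well. The age-by-type test was added after the values were seen. Intervals of counts cover counting error only.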

Additional observations from a re-analysis of the deposited data

Results flagged for a closer look

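In 5 of 39 groups examined, 1 saline library lay far from the rest, and chance alone marks about 1 in 20 groups. Insig1 stood at 65.9 CPM in inhibitory neurons of the second saline library of 15 days (next 29.7, lowest 17.2), and at 129.7 CPM in mature oligodendrocytes of the same library (next 66.2, lowest 34.4). The rest came from the first saline library of maintenance: Idi1 at 66.8 CPM in inhibitory neurons (next 36.8, lowest 20.6), Cyp51 at 256 in NF oligodendrocytes (next 120.2, lowest 73.3) and, on the low side, Elovl6 at 73.9 in mature oligodendrocytes (next 108, highest 128). That library held only 19 inhibitory neurons and 11 NF oligodendrocytes, and the part of counting error in these values was not tested.

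Several members were called in opposite directions with age in mature oligodendrocytes and another type, and the difference itself was called by edgeR (adjusted over all genes). For Fdps it was -2.37 against excitatory neurons and -2.83 against inhibitory neurons on the log2 scale. For Sc4mol it was -1.68 against excitatory neurons, -2.09 against inhibitory neurons and -1.66 against endothelial cells. For Fdft1 and Idi1 it was -1.95 and -3.22 against inhibitory neurons.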

How the results depend on the processing

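In mature oligodendrocytes the 20 called members stayed within 17 to 20 under every alternative run, and 17 to 20 without 1 library. Of the 39 changes with age called in a type, 23 kept their call in every alternative, 78 of 697 values lost it and 0 changed direction. The 20 and the 39 include Scd3, Srebf1 and Lss in mature oligodendrocytes, which passed the filter only through the age at which they were high. Scd3 and Lss are among the 23 as well, and their kept calls add nothing.

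The other counts moved more, at their small size. The share of all genes called is given for the main fit only and not for these alternatives. A count that rises with a looser setting or more libraries is therefore not a result about the members. For astrocytes (1 called) the count was 0 with P21 libraries 2 and 3 summed, 3 with all 12 P60 libraries, 4 with the class column and 3 with no filter. For endothelial cells (3) it was 6 with the class column, for excitatory neurons (4) 15 with no fold minimum, and for microglia (0) 1 with DESeq2, with all 12 P60 libraries and with no filter, and 6 with the class column. For NF oligodendrocytes (4) it was 1 with the P21 libraries summed or the class column, 11 with all 12 P60 libraries, 0 with at least 30 cells and 10 with no filter. Without 1 library the counts ran from 0 to 3 in astrocytes, 2 to 5 in endothelial cells, 4 to 5 in excitatory neurons, 5 to 7 in inhibitory neurons, 0 to 1 in microglia and 0 to 4 in NF oligodendrocytes, and between types from 23 to 26 (astrocytes minus excitatory neurons), 19 to 22 (mature oligodendrocytes minus excitatory neurons), 9 to 13 (NF minus mature oligodendrocytes) and 7 to 16 (NF oligodendrocytes minus OPC). All cocaine counts stayed at 0 under the alternatives run. The causes were not tested.

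With the library number as a replicate block, which only numbers 2 and 3 share between the ages and which no label ties to a shared animal or day, the count was 7 in endothelial cells, 7 in excitatory neurons, 4 in inhibitory neurons, 0 in microglia and 18 in mature oligodendrocytes. No value with the block was obtained in astrocytes and NF oligodendrocytes.

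The filter on low counts left 27 members untested in microglia and 10 in NF oligodendrocytes. The saline libraries held 675 microglia and 156 NF oligodendrocytes, and the part of cell number and of level in these counts was not tested. The highest type changed for 5 of 33 members when all 12 P60 libraries replaced the 6 saline ones.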

Other observations

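In the 1 P21 library with at least 10 OPC, the 17 detected cholesterol enzymes summed to 1014 CPM in OPC, within the range of the saline P60 libraries (949 to 1297), where mature oligodendrocytes of P21 and P60 did not overlap. This library held 28 OPC, and in them the endothelial markers summed to 1348 CPM (132 to 202 at P60) and the microglia markers to 1089 (6.97 to 111 at P60). The cholesterol enzymes summed to 552 and 378 CPM in P60 endothelial cells and microglia, and the part of these markers in the value was not tested.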
